A study of Mus musculus with 30 samples.

Results

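Collagen chain genes were defined as protein coding genes whose symbol is Col, a type number, the letter a and a chain number, and 44 of the 55487 genes in the count table met this rule. They comprised 11 fibrillar chains, 8 basement membrane chains and 25 chains of other types. RNA-sequencing was performed on C2C12 myotubes, which are multinucleated muscle cells formed by fusion of an immortalized mouse myoblast line, so all groups came from 1 wild-type clonal line in culture. Cells of every group were differentiated for 4 days in medium with 2% horse serum and then kept for 4 further days either in the same serum (2% HS) or without serum (serum deprivation, SD). The SD medium was given alone, with 100 nM metformin (MET), with 500 nM leucine (LEU) or with both at these doses (MET+LEU). Each group had 6 libraries, and the labels do not say whether these came from separate cultures, so p-values measure the spread between these samples only. Serum deprivation was the study's atrophy stimulus, and the comparisons ask how it and each treatment altered the transcripts of these cells.

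Collagens are secreted proteins in which 3 alpha chains, each a run of repeated Gly-X-Y triplets, wind into a helix. Fibrillar chains (types I, II, III, V, XI, XXIV and XXVII) assemble into banded fibrils, type IV chains form the sheet-like network of basement membranes, and the other types bind to fibrils, form beaded filaments or span the cell membrane. In skeletal muscle, collagens I, III and VI lie mainly in the connective tissue between fibres and are made mostly by fibroblasts, whereas types IV, XV and XVIII belong to the basement membrane around each fibre. Myogenic cells also transcribe many of these genes in culture.

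Libraries held 12784960 to 19604103 counts, and a count of 0 allows up to 3 counts, or 0.153 to 0.235 CPM (counts scaled to the library size). MET+LEU replicate 6 stood apart, with 5.85% of its counts on ribosomal RNA and 7.64% on mitochondrial ribosomal RNA, against at most 1.96% and 0.76% in the other 29 libraries, so the counts of chains called in the MET+LEU comparisons, and the calls that end without it, are also given without it. The other 5 MET+LEU libraries also differed from SD, with 0.649% to 0.76% mitochondrial ribosomal RNA against 0.282% to 0.367% and TMM scaling factors of 0.968 to 0.985 against 1.002 to 1.027, both without overlap. The LEU libraries, at 0.501% to 0.71% mitochondrial ribosomal RNA, were all above SD too, and the MET libraries had 0.244% to 0.705%. The TMM factors of LEU (0.997 to 1.009) and MET (1.007 to 1.034) overlapped those of SD. The part of this RNA in the LEU and MET comparisons was not tested. The labelled cell type was borne out by its markers, since 9 of 9 myotube markers (among them Ckm, Acta1 and Ttn) were detected with summed levels of 28080 to 41990 CPM. Markers of endothelial cells summed to at most 1.14 CPM, of blood cells to at most 3.71 CPM, with Adgre1, Hbb-bs and Hba-a1 at 0 in every library, and of epithelial cells to at most 6.88 CPM. Markers of unfused myoblasts or reserve cells (540 to 942 CPM summed), cycling cells (139 to 266 CPM) and fibroblasts (346 to 803 CPM) were present too. Which cells of the cultures held the collagen transcripts was not tested.

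Collagen transcripts were abundant in these cultures, and a few chains accounted for nearly all of them. Of the 44 genes, 32 passed the filter on low counts and were tested among 15907 genes, and 12 were not. Of those 12, Col9a1 and Col6a6 had no count in any library, while Col9a3, Col28a1, Col2a1, Col4a6, Col6a4, Col10a1, Col6a5, Col4a4, Col9a2 and Col4a3 had between 1 and 144 counts over all 30 libraries. The absent or near-absent chains therefore included Col2a1, the chain of cartilage fibrils, all 3 Col9 chains that decorate those fibrils, Col10a1 of hypertrophic cartilage, and the Col4a3, Col4a4 and Col4a6 chains of specialized basement membranes. Among the tested genes, 14 had a mean of at least 100 CPM, 6 had 10 to 100 CPM and 12 had less than 10 CPM.

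Scaled to transcript length, Col3a1, the chain of type III fibrils, had the highest level, with a mean of 760 CPM per kilobase over all libraries. Col1a2, the second chain of type I collagen, followed at 262 CPM per kilobase, then Col5a2 at 244 and Col12a1 at 234 CPM per kilobase. The place of Col1a2 depends on its length, 5348 bases in the transcript used against 12426 over merged exons. Col3a1 exceeded Col1a2 beyond the spread between libraries, whereas the order of the next chains depended on the group. In 2% HS, Col1a2 (191 ± 6.78 CPM per kilobase, mean ± standard deviation, n = 6) and Col5a2 (193 ± 5.57) did not differ beyond their spread, and neither did Col5a1 (138 ± 3.81) and Col6a1 (138 ± 3.06). In SD, Col12a1 (254 ± 10.99) stood beside Col5a2 (243 ± 10.0), although it had been lower in 2% HS (111 ± 2.64 against 193 ± 5.57). By raw counts, Col3a1 held 26.98% and Col12a1 17.1% of all collagen counts, and the 12 most abundant chains together held 96.9%.

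**Figure D1:**
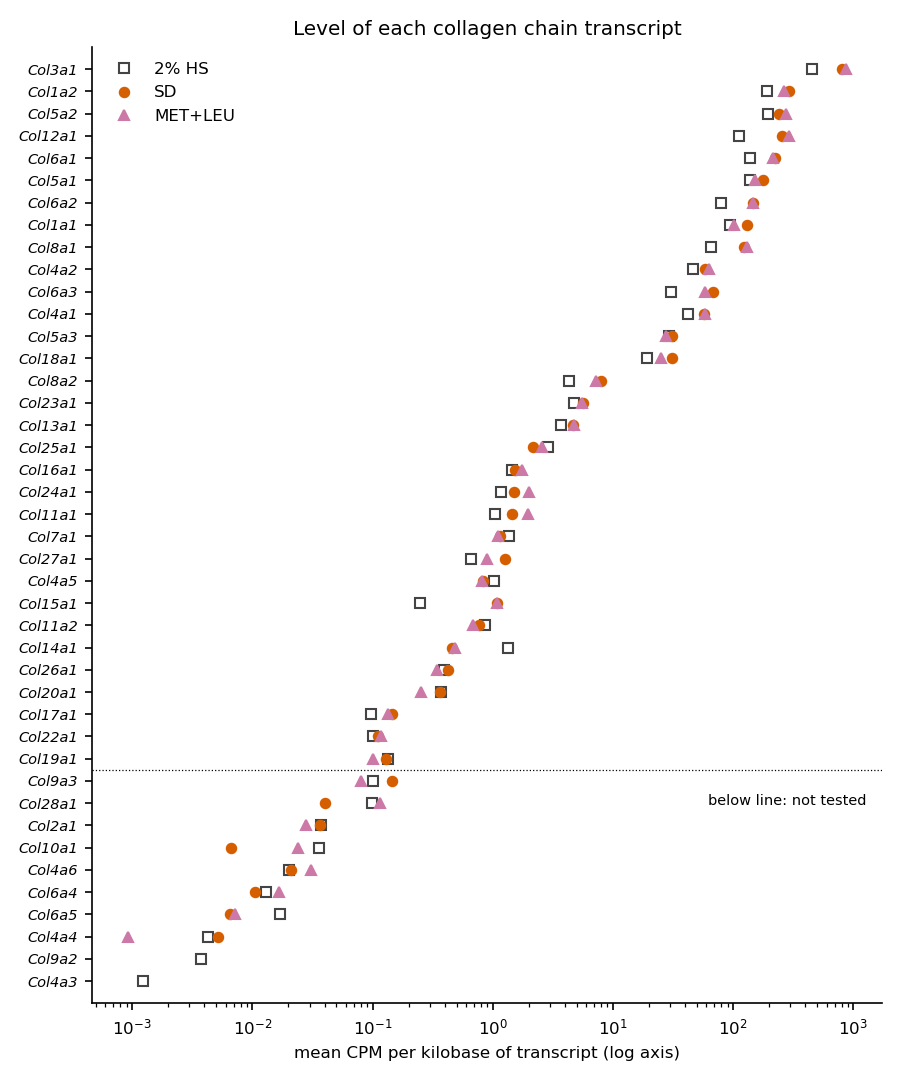
Mean level of each collagen chain transcript in CPM per kilobase of transcript (x, log axis) in 2% HS, SD and MET+LEU (6 libraries each); genes below the dotted line were not tested, group means of 0 are not drawn, and the 2 genes with no counts are left out. Levels ranged 6806-fold from Col19a1 to Col3a1 among the tested genes, and the 14 chains at the top were those with a mean of at least 100 CPM.

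Several of these genes lie next to each other in the genome (GRCm38, GENCODE M21). Col3a1 (ENSMUSG00000026043, chr1:45311538-45349706, plus strand) and Col5a2 (ENSMUSG00000026042, chr1:45374321-45503282, minus strand) face each other tail to tail across 24614 bases. Col4a1 (ENSMUSG00000031502, chr8:11198423-11312826, minus strand) and Col4a2 (ENSMUSG00000031503, chr8:11312805-11449287, plus strand) start head to head and their annotated spans overlap by 22 bases, so reads on that overlap could belong to either gene. Col6a2 (chr10:76595762-76623630) and Col6a1 (chr10:76708792-76726168) lie on the same minus strand, 85161 bases apart. The type IV pairs Col4a4 and Col4a3 on chromosome 1 and Col4a6 and Col4a5 on chromosome X are also head to head, across 71 and 1308 bases.

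The 250 bases before the start were available from RefSeq (GRCm38.p6) for 35 of the 44 genes, as 38 windows. The 5 below are printed in the direction of transcription because they belong to Col3a1, the most abundant chain, and to the 4 chains with the largest SD vs. 2% HS increase among those whose window held no annotated exon. Capitals mark the letters of a TATA box (TATAAA) or a GC box (GGGCGG, or CCGCCC when read from the opposite strand) at any position in the window. Whether a match acts as such a promoter element was not tested.
Col3a1, chr1:45311288-45311537, plus strand: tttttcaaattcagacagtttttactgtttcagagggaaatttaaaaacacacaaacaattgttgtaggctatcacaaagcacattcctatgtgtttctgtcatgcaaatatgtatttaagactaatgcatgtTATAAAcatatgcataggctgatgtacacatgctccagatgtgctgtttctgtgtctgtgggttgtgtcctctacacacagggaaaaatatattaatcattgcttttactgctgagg
Col15a1, chr4:47207762-47208011, plus strand: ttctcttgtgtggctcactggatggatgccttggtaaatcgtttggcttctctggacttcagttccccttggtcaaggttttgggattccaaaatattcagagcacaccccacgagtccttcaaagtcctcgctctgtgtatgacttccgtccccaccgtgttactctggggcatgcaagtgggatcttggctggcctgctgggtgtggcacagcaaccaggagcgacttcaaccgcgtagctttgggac
Col6a3, chr1:90843972-90844221, minus strand: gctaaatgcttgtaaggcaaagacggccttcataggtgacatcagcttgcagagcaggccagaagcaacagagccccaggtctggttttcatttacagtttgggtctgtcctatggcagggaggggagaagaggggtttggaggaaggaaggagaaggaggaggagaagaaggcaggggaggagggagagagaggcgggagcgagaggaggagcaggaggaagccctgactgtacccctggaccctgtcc
Col27a1, chr4:63215162-63215411, plus strand, a RefSeq start inside the GENCODE gene: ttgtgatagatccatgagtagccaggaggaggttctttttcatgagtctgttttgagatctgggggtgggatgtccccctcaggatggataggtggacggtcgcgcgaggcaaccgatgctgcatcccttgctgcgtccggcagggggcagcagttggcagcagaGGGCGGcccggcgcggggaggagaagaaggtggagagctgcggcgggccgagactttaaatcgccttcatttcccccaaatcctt
Col8a1, chr16:57754738-57754987, minus strand: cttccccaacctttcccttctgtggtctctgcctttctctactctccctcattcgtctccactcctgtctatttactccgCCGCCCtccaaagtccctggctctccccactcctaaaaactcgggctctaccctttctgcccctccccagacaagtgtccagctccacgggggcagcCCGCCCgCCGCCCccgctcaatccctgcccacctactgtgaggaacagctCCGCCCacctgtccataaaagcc
In Col3a1 the TATAAA match began 117 bases before the start, and in Col27a1 the GC box match began 85 bases before it. Col8a1 held 4 GC box matches on the opposite strand, 23 to 170 bases before its start. Neither motif, nor CCAAT, was found in the windows of Col15a1 and Col6a3. Counting both strands, a GC box was present in 22 of the 38 collagen windows (57.9%) against 32.7% of all 32851 promoter windows, a TATA box in 5 (13.2% against 12.4%) and CCAAT in 13 (34.2% against 33.8%). The 5 upregulated genes shown thus shared none of these 3 motifs throughout.

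Most of the tested collagen chains were upregulated by serum deprivation. Collagen chain genes took 1.016% to 1.089% of all counts in the 6 2% HS libraries and 1.68% to 1.77% in the 6 SD libraries, with medians of 1.05% and 1.72% and no overlap. Scaled by TMM, the summed collagen level was 10370 CPM in 2% HS and 16950 CPM in SD (group means). In SD vs. 2% HS, 19 of the 32 tested chains were upregulated and 3 downregulated (edgeR quasi-likelihood test, adjusted p under 0.05), where 13.9% of all tested genes were upregulated and 13.9% downregulated. The median log2 fold change was 0.37 over the collagen chains and 0.0028 over all tested genes. In 16 of the 32 every SD library was above every 2% HS library, and in 2 every SD library was below, while 6.18% and 7.42% of all tested genes showed these patterns. Transcripts of whole cultures were measured, so a changed number of cells of a type and a changed amount of RNA per cell cannot be told apart.

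Other markers moved with this comparison. The 9 fibroblast and fibro-adipogenic markers summed to 346 to 376 CPM in 2% HS and 619 to 711 CPM in SD, with 7 of 9 tested and the lineage factor Tcf21 at 0 in every library. The 9 myotube markers summed to 39280 to 41990 CPM in 2% HS and 31390 to 33860 CPM in SD, and the 8 markers of unfused myoblasts or reserve cells to 859 to 942 and 622 to 686 CPM. Ttn held most of the myotube sum and Postn most of the fibroblast sum. Gene by gene, 6 of the 7 tested fibroblast markers were upregulated and none downregulated. Of the 9 myotube markers 1 rose and 5 fell, and of the 8 unfused-cell markers 1 rose and 4 fell, against 13.9% of all tested genes each way. The part of these changes in the collagen result was not tested.

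Among the fibrillar chains, 8 of the 10 tested were upregulated in SD vs. 2% HS and none was downregulated, against 13.9% of all tested genes each way. Col3a1 had 2440, 2530 and 2656 CPM (lowest, median and highest library) in 2% HS and 4316, 4483 and 4682 CPM in SD, a log2 fold change of 0.83 ± 0.03 (SE; adjusted p = 1.48e-25). Both chains of type I collagen, the main fibril of tendon, skin and bone, also increased without overlap of the groups. Col1a2 rose from 981, 1021 and 1083 CPM to 1524, 1546 and 1620 CPM (0.61 ± 0.03, adjusted p = 1.12e-20). Col1a1 rose from 515, 575 and 613 CPM to 692, 765 and 859 CPM (0.45 ± 0.05, adjusted p = 4.19e-10). Type V chains, which nucleate type I fibrils and set their diameter, increased by less. Col5a1 rose from 1117, 1173 and 1193 CPM to 1432, 1471 and 1584 CPM (0.37 ± 0.04, adjusted p = 3.59e-09). Col5a2 rose from 1220, 1290 and 1323 CPM to 1519, 1615 and 1712 CPM (0.33 ± 0.03, adjusted p = 2.04e-11). Col5a3, another type V chain, did not pass the test (0.07 ± 0.06, adjusted p = 0.473).

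The minor fibrillar chains were present at far lower levels. Col27a1 rose from 4.48, 4.97 and 5.47 CPM to 7.89, 9.75 and 11.5 CPM, the largest log2 fold change of the fibrillar class (0.95 ± 0.12, adjusted p = 6.06e-09). Col11a1 (0.47, adjusted p = 0.000181) and Col24a1 (0.37, adjusted p = 0.00207) were upregulated with overlapping libraries. Col11a2 changed by -0.15 ± 0.16 without passing the test (adjusted p = 0.531).

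Of the 5 basement membrane chains tested, 4 were upregulated and 1 was downregulated, where 13.9% of all tested genes were called in each direction. Col15a1, a multiplexin of the outer basement membrane, showed the largest increase of any collagen chain, at a low level. It had 0.505, 1.4 and 1.84 CPM in 2% HS and 4.11, 5.15 and 7.91 CPM in SD, a log2 fold change of 2.16 ± 0.20 (adjusted p = 1.17e-11). Col18a1, the related multiplexin and source of endostatin, rose from a median of 107 to 173 CPM (0.69 ± 0.07, adjusted p = 3.82e-09). The chains of the common type IV network increased in parallel but by less. Col4a1 rose from 256, 276 and 297 CPM to 356, 379 and 393 CPM (0.44 ± 0.04, adjusted p = 4.92e-13). Col4a2 rose from 285, 294 and 314 CPM to 335, 380 and 402 CPM (0.35 ± 0.04, adjusted p = 8.00e-11). Col4a5, a chain of a different type IV network, fell from a median of 6.17 to 5.35 CPM with overlapping libraries (log2 fold change of -0.32 ± 0.12, adjusted p = 0.0452).

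Of the 17 other chains tested, 7 were upregulated (41.2%) and 2 downregulated (11.8%). Over all tested genes the share was 13.9% in each direction, so the downregulated share was near it. All 3 tested chains of type VI collagen, which forms beaded filaments close to the muscle fibre, increased without overlap. Col6a3 rose from 296, 303 and 327 CPM to 657, 689 and 700 CPM (1.156 ± 0.03, adjusted p = 2.72e-30). Col6a2 rose from 296, 318 and 330 CPM to 542, 583 and 609 CPM (0.87 ± 0.04, adjusted p = 9.44e-25). Col6a1 rose from 546, 568 and 585 CPM to 862, 898 and 965 CPM (0.69 ± 0.03, adjusted p = 4.02e-22). The short-chain network genes Col8a1 (0.91 ± 0.03, adjusted p = 3.90e-27) and Col8a2 (0.88 ± 0.11, adjusted p = 1.10e-07) were upregulated as well, Col8a1 from a median of 336 to 635 CPM.

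The FACIT chains, which attach to the surface of fibrils, moved in opposite directions. Col12a1 rose from 1232, 1286 and 1324 CPM to 2758, 2896 and 3110 CPM (1.19 ± 0.04, adjusted p = 3.34e-29). Col14a1, its close relative, fell from 7.34, 8.89 and 9.76 CPM to 2.57, 2.94 and 3.46 CPM, a log2 fold change of -1.55 ± 0.14 (adjusted p = 5.25e-13). The libraries did not overlap for either gene. The other 4 tested FACIT chains (Col16a1, Col19a1, Col20a1 and Col22a1) did not pass the test, with log2 fold changes of -0.07 to 0.16. Of the membrane-spanning chains, Col23a1 rose (0.24, adjusted p = 0.0229), Col25a1 fell (-0.42, adjusted p = 0.00361), and Col13a1 and Col17a1 did not pass the test.

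The make-up of the collagen transcripts shifted accordingly. Fibrillar chains accounted for 65.3% ± 0.41 of collagen counts in 2% HS (mean ± standard deviation, n = 6) and 60.0% ± 0.65 in SD. The other types rose from 28.04% ± 0.49 to 34.5% ± 0.68, and basement membrane chains went from 6.66% ± 0.20 to 5.55% ± 0.19. These shares are given as a description, without a test, and their ranges over libraries did not overlap between the groups.

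**Figure D2:**
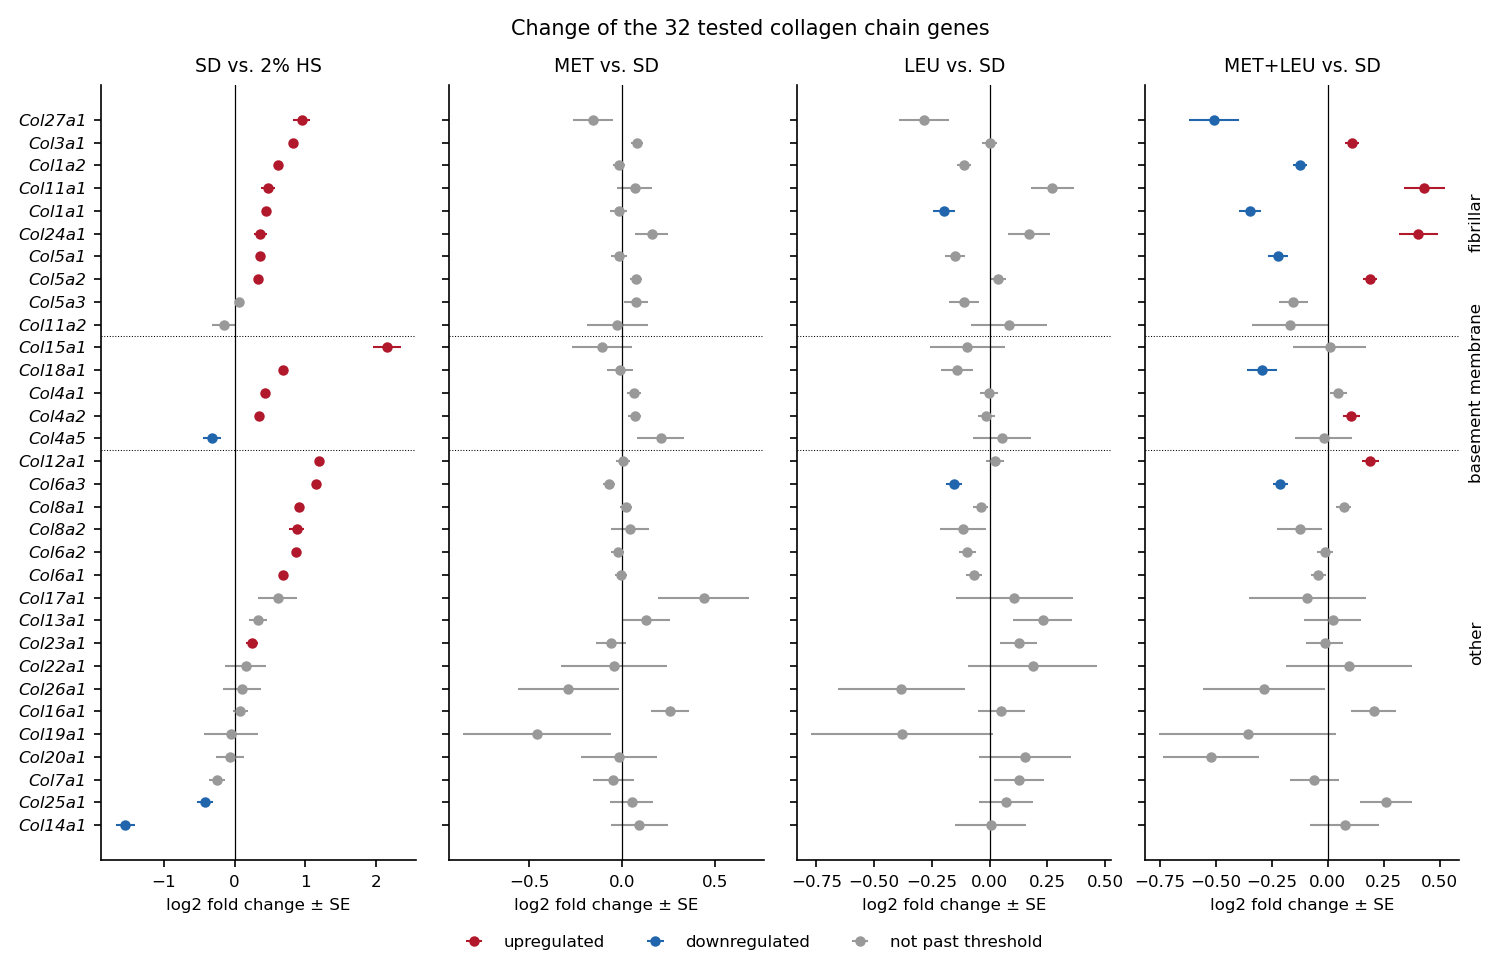
Log2 fold change ± SE (x) of the 32 tested collagen chain genes (y, grouped by class and ordered by SD vs. 2% HS) in 4 comparisons, each panel with its own x scale, with colours for genes past an adjusted p under 0.05. Serum deprivation upregulated 19 genes and downregulated 3, MET changed none, LEU downregulated 2, and MET+LEU changed 6 in each direction.

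Compared with SD, no collagen chain passed the test gene by gene with MET. The MET, LEU and MET+LEU comparisons share the same 6 SD libraries. In MET vs. SD, 0 of 32 chains passed the test in edgeR and 0 in DESeq2. Of all tested genes, 0.157% were called in either direction. An unadjusted p under 0.05 was found for 4 chains, 3 positive and 1 negative, against 749 and 848 of all 15907 tested genes. With both directions counted, the share of chains was near that of all genes. Log2 fold changes ranged from -0.46 to 0.44, with a median of -0.0028, and the collagen share of counts was 1.72% to 1.79%. The extremes were Col19a1 (-0.46 ± 0.40) and Col17a1 (0.44 ± 0.24), which had medians under 2 CPM in both groups.

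In LEU vs. SD, 2 chains were downregulated and none upregulated, where 0.321% and 0.233% of all tested genes were. Col6a3 had 571, 620 and 645 CPM in LEU against 657, 689 and 700 CPM in SD, without overlap (log2 fold change of -0.15 ± 0.03, adjusted p = 0.0183). Col1a1 had 605, 673 and 733 CPM in LEU against 692, 765 and 859 CPM in SD, with overlap (-0.20 ± 0.05, adjusted p = 0.0408). Col1a1 lost its call in 11 of 30 fits that each left out a library and Col6a3 in 4. Without SD replicate 2, SD replicate 6 or LEU replicate 4 no chain passed the test. With SD replicate 1 or 3, MET replicate 3 or 4, or LEU replicate 1, 2, 3, 5 or 6 left out, 1 did. Without MET+LEU replicate 6, 4 did, with Col1a2 (-0.11, adjusted p = 0.0339) and Col5a1 (-0.14, adjusted p = 0.00361) added. That library enters this comparison only through the gene filter, the scaling and the shared spread.

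With MET+LEU, equal numbers of collagen chains were upregulated and downregulated compared with SD. The summed collagen level was 17320 CPM in MET+LEU (17410 CPM without replicate 6), against 16950 CPM in SD and 10370 CPM in 2% HS. In MET+LEU vs. SD, 6 chains were upregulated and 6 downregulated of the 32, where 10.6% and 7.8% of all tested genes were. The counts were also 6 and 6 without MET+LEU replicate 6. The median log2 fold change was -0.02, and -0.0050 over all tested genes. In 2 chains every MET+LEU library was above every SD library and in 5 every one was below, against 3.43% and 1.92% of all tested genes. Other markers moved with this comparison too. All 10 markers of cycling cells were downregulated, with a median log2 fold change of -0.65, and summed to 191 to 266 CPM in SD and 139 to 172 CPM in MET+LEU. Of the 9 myotube markers 4 were upregulated and 1 downregulated, and of the 7 tested fibroblast markers 1 was upregulated and 1 downregulated. The part of these markers, and of the ribosomal RNA, in the collagen result was not tested.

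The fibrillar chains split evenly, with 4 upregulated and 4 downregulated of 10. Type I chains were lower in MET+LEU than in SD, with no overlap. Col1a1 had 571, 601 and 651 CPM in MET+LEU against 692, 765 and 859 CPM in SD (log2 fold change of -0.35 ± 0.05, adjusted p = 2.14e-06). Col1a2 had 1355, 1424 and 1519 CPM in MET+LEU against 1524, 1546 and 1620 CPM in SD (-0.12 ± 0.03, adjusted p = 0.00424), a call lost in a fit of these groups only. The type V chains moved apart. Col5a1 had 1025, 1316 and 1401 CPM in MET+LEU against 1432, 1471 and 1584 CPM in SD (-0.22 ± 0.04, adjusted p = 0.00025), and the lowest value was replicate 6, without which the log2 fold change was -0.17. Col5a2 had 1731, 1843 and 1896 CPM in MET+LEU against 1519, 1615 and 1712 CPM in SD (0.19 ± 0.03, adjusted p = 5.28e-05).

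Col3a1 was slightly higher in MET+LEU, with 4594, 4873 and 5048 CPM against 4316, 4483 and 4682 CPM in SD (0.11 ± 0.03, adjusted p = 0.0155). This call was lost without SD replicate 1, SD replicate 2, MET+LEU replicate 2 or MET+LEU replicate 4 (lowest log2 fold change 0.086), and in a fit of these groups only. The minor fibrillar chains showed the largest differences. Col11a1 had 13.1, 14.4 and 18.5 CPM in MET+LEU against 8.43, 11.02 and 13.7 CPM in SD (0.43 ± 0.09, adjusted p = 0.000702). Col24a1 rose from a median of 10.7 to 14.4 CPM (0.40 ± 0.09, adjusted p = 0.000864). Col27a1 fell from a median of 9.75 to 6.78 CPM (-0.51 ± 0.11, adjusted p = 0.000968). Libraries of both groups overlapped for these 3 genes.

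Outside the fibrillar class, fewer chains changed. Among basement membrane chains, Col18a1 had 130, 140 and 155 CPM in MET+LEU against 159, 173 and 192 CPM in SD (-0.29 ± 0.07, adjusted p = 0.0031). Col4a2 had 394, 402 and 444 CPM against 335, 380 and 402 CPM (0.10 ± 0.04, adjusted p = 0.0372), a call that 24 of 30 fits leaving out a library lost, with 0.065 without SD replicate 2, as did upper-quartile scaling, limma-voom, a wider gene filter and a fit of these groups only. Its partner Col4a1 did not pass the test (0.05, adjusted p = 0.424), and Col15a1 had a log2 fold change of 0.0074. Of the other types, Col12a1 rose further, to 3112, 3258 and 3649 CPM, above every SD library (0.19 ± 0.04, adjusted p = 0.000296). Col6a3 fell to 571, 587 and 621 CPM, below every SD library (-0.21 ± 0.03, adjusted p = 1.73e-05), while Col6a1 (-0.04, adjusted p = 0.407) and Col6a2 (-0.01, adjusted p = 0.835) did not pass the test and changed sign with a correction for GC content.

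**Figure D3:**
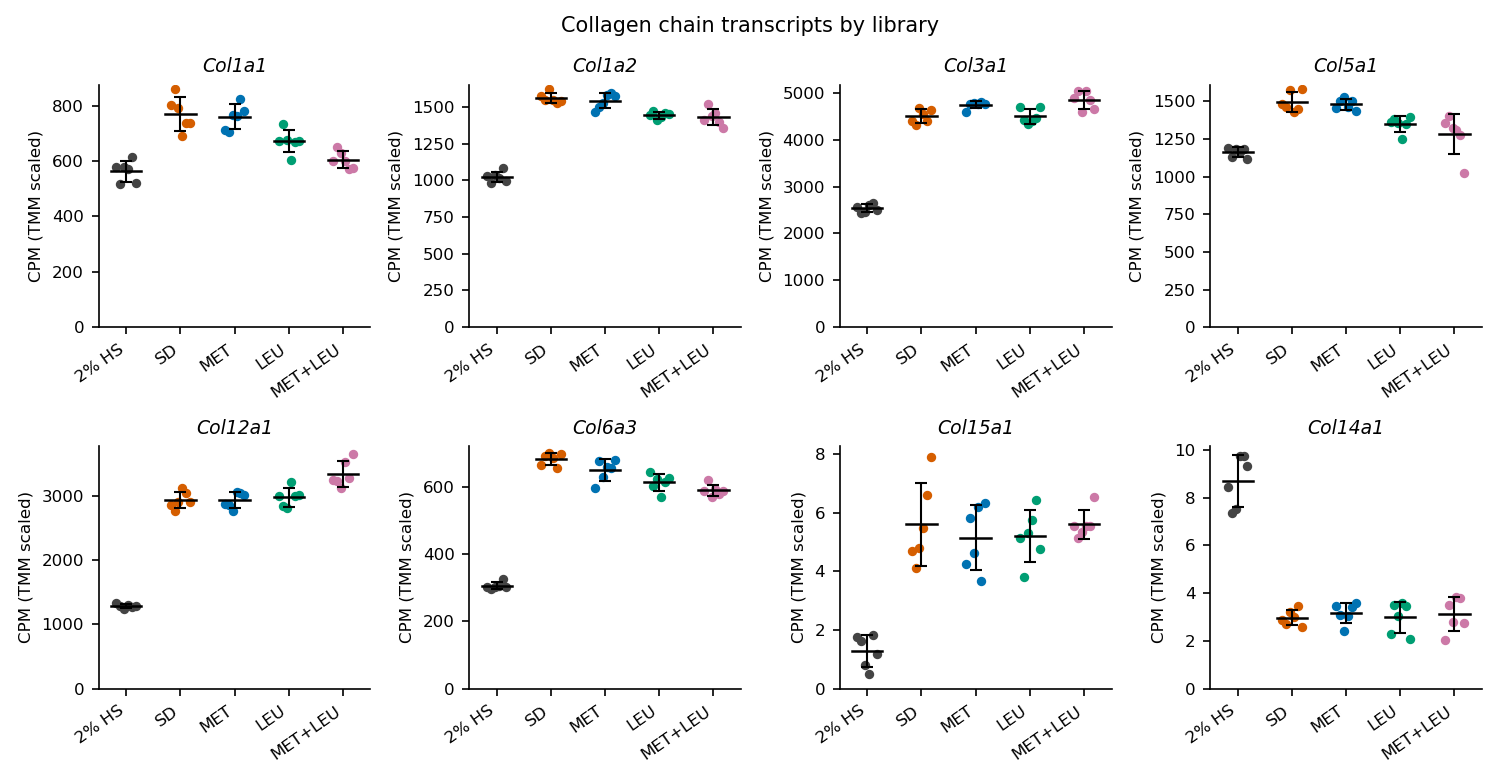
TMM-scaled CPM (y, from 0) of 8 collagen chain genes in each library of the 5 groups (x); points are libraries, lines are group means and bars are the standard deviation (n = 6). Col1a1 in MET+LEU (571 to 651 CPM) lay below every SD library, Col12a1 in MET+LEU (3112 to 3649 CPM) lay above every SD library, and Col15a1 and Col14a1 in SD lay apart from 2% HS in opposite directions.

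Compared directly with 2% HS, most collagen chains differed in MET+LEU cultures. In MET+LEU vs. 2% HS, 20 chains were upregulated and 4 downregulated, where 22.1% and 20.3% of all tested genes were, and the median log2 fold change was 0.42. Col12a1 (1.38 ± 0.04), Col6a3 (0.94 ± 0.03) and Col3a1 (0.93 ± 0.03) were among the largest increases, and Col15a1 had a log2 fold change of 2.17 ± 0.20. Col14a1 (-1.47 ± 0.14), Col20a1, Col4a5 and Col7a1, the chain of anchoring fibrils, were downregulated. Without MET+LEU replicate 2 the downregulated chains numbered 2, and without replicate 6 there were 19 upregulated and 3 downregulated chains, with Col13a1 and Col4a5 lost. Col1a1 did not pass the test there (0.10 ± 0.05, adjusted p = 0.0813).

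Against the single treatments, MET+LEU upregulated 3 chains and downregulated 7 vs. MET, where 5.54% and 3.15% of all tested genes were, with 4 downregulated without MET replicate 4 and 6 without MET+LEU replicate 6, which lost Col27a1. Col1a1 (-0.33 ± 0.05, adjusted p = 2.69e-05) and Col5a1 (-0.21 ± 0.04, adjusted p = 0.0023) were among the downregulated chains, and Col12a1 (0.19 ± 0.04, adjusted p = 0.00141) was among the upregulated ones. In MET+LEU vs. LEU, 5 chains were upregulated and 2 downregulated, where 4.61% and 1.67% of all tested genes were. Fits that left out a library gave 2 or 3 upregulated chains in 25 of 30 cases and 0 or 1 downregulated chains in 12. Without MET+LEU replicate 6 there were 4 and 0, with Col1a1, Col20a1 and Col4a2 lost. The departure of MET+LEU from the sum of both single effects was tested as an interaction. It was past the threshold for 0 of 32 chains in edgeR and 0 in DESeq2, where 0.0503% of all tested genes were called. At an unadjusted p under 0.05, 2 chains were positive and 1 was negative, against 904 and 485 of all 15907 tested genes. The share of chains was thus near that of all genes. Col12a1 had the smallest unadjusted p of the chains (interaction 0.16 ± 0.05, adjusted p = 0.298).

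Chains that pair in the same trimer can be compared within a library, where library size plays no part, although chains that differ in GC content can still be measured differently between libraries. The log2 ratio of counts was tested for 4 pairs in 4 comparisons by an exact two-sided permutation test of 6 against 6 libraries, adjusted over the 16 tests, with 0.00216 as the smallest p the design allows. The Col1a1 to Col1a2 ratio was lower in SD than in 2% HS, and lower again in MET+LEU before correction for GC content. It was -0.93, -0.84 and -0.82 in 2% HS (lowest, median and highest library), -1.161, -1.04 and -0.85 in SD and -1.29, -1.23 and -1.19 in MET+LEU. The differences were -0.16 for SD vs. 2% HS (exact test, adjusted p = 0.0198) and -0.22 for MET+LEU vs. SD (exact test, adjusted p = 0.00866, no overlap). With a correction for GC content the MET+LEU difference was -0.09 and did not pass the test (exact test, adjusted p = 0.376), and it was -0.13 when replicate 6 was also left out (exact test, adjusted p = 0.0173). The SD difference was -0.20 with the correction (exact test, adjusted p = 0.0173). Scaled to transcript length, the ratio of both levels was 0.496 in 2% HS, 0.444 in SD and 0.381 in MET+LEU. These values depend on the length chosen. Col1a1 has 5930 bases in the transcript used and 6563 over merged exons, and Col1a2 has 5348 and 12426. The ratios therefore cannot be set against the type I trimer, which holds more Col1a1 than Col1a2 chains.

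The Col5a1 to Col5a2 ratio did not pass the test in SD vs. 2% HS (difference 0.04, exact test, adjusted p = 0.447) and before correction for GC content was lower in each treated group than in SD. The SD libraries had a median of -0.10, the MET libraries -0.19, the LEU libraries -0.27 and the MET+LEU libraries -0.48. The differences from SD were -0.09 for MET (exact test, adjusted p = 0.0173), -0.19 for LEU (exact test, adjusted p = 0.00866) and -0.42 for MET+LEU (exact test, adjusted p = 0.00866). The MET+LEU libraries ranged from -0.83, which was replicate 6, to -0.39, all below the lowest SD library at -0.19. Without replicate 6 the difference was -0.36 (exact test, adjusted p = 0.0115). With the correction for GC content the differences from SD were -0.29 for MET+LEU (exact test, adjusted p = 0.0115, no overlap) and -0.17 for LEU (exact test, adjusted p = 0.0208), while that for MET was -0.05 and no longer passed (exact test, adjusted p = 0.446).

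The Col6a1 to Col6a2 ratio was 0.82 to 0.93 in 2% HS and 0.57 to 0.72 in SD, without overlap (difference -0.19, exact test, adjusted p = 0.00866). The Col4a1 to Col4a2 ratio rose by 0.086 with SD (exact test, adjusted p = 0.0173), and the 3 treatments did not pass the test for either pair. With the correction for GC content the Col4a1 to Col4a2 ratio was lower in MET+LEU than in SD (-0.11, exact test, adjusted p = 0.0231), but not when replicate 6 was also left out (-0.064, exact test, adjusted p = 0.0544).

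**Figure D4:**
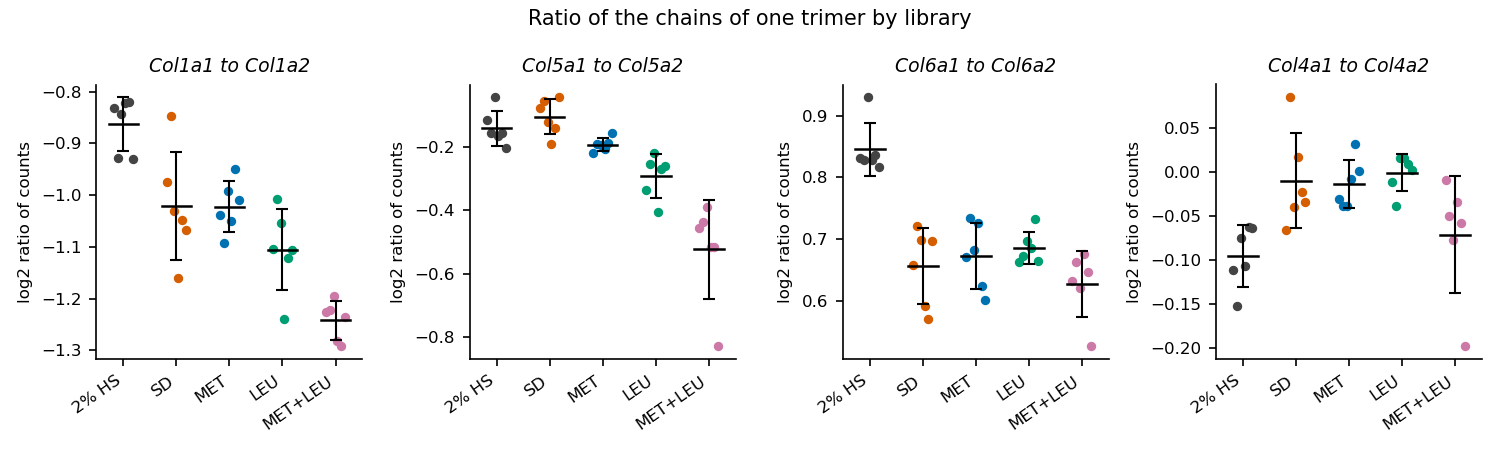
Log2 ratio of the counts of 4 chain pairs (y) in each library of the 5 groups (x), each panel with its own y scale; points are libraries, lines are group means and bars are the standard deviation (n = 6). The Col5a1 to Col5a2 ratio in MET+LEU ranged from -0.83 to -0.39, below every SD library, and the lowest point of MET+LEU there is replicate 6.

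The change with MET+LEU was related to base composition, and so were changes in other comparisons. Collagen chain genes are rich in GC, with a median of 56.9% against 49.4% over all tested genes. GC content was taken over all annotated transcripts of a gene pooled, so exons shared by several transcripts count more than once. Across genes, the log2 fold change of MET+LEU vs. SD had a Spearman correlation with GC content of -0.47 over the 32 chains and -0.31 over 15881 genes. Genes share libraries and are no independent replicates, so these values are a description. With a correction for GC content in each library, 7 chains were upregulated and 5 downregulated in MET+LEU vs. SD. The share of all tested genes called with this correction is not given here, so these counts cannot be set against it. Col18a1 (-0.17, adjusted p = 0.139) and Col3a1 (0.07, adjusted p = 0.15) lost their calls, and Col4a1 (0.12, adjusted p = 0.0153) and Col16a1 (0.34, adjusted p = 0.0162) gained one. Col1a1 (-0.26), Col1a2 (-0.16), Col5a1 (-0.14), Col6a3 (-0.17) and Col27a1 (-0.39) remained downregulated, and Col11a1, Col24a1, Col5a2, Col12a1 and Col4a2 remained upregulated. Col1a1 and Col1a2 differ in GC content (57.8% and 46.8%), as do Col5a1 and Col5a2 (57.7% and 46.8%), and the correction moved the MET+LEU ratio differences of both pairs toward 0. The Col4a1 to Col4a2 difference (GC of 56.9% and 60.5%) moved away from 0, from -0.061 to -0.111. The Col6a1 to Col6a2 difference went from -0.029 to -0.026. The part of GC content in the ratio differences was not tested.

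**Figure D5:**
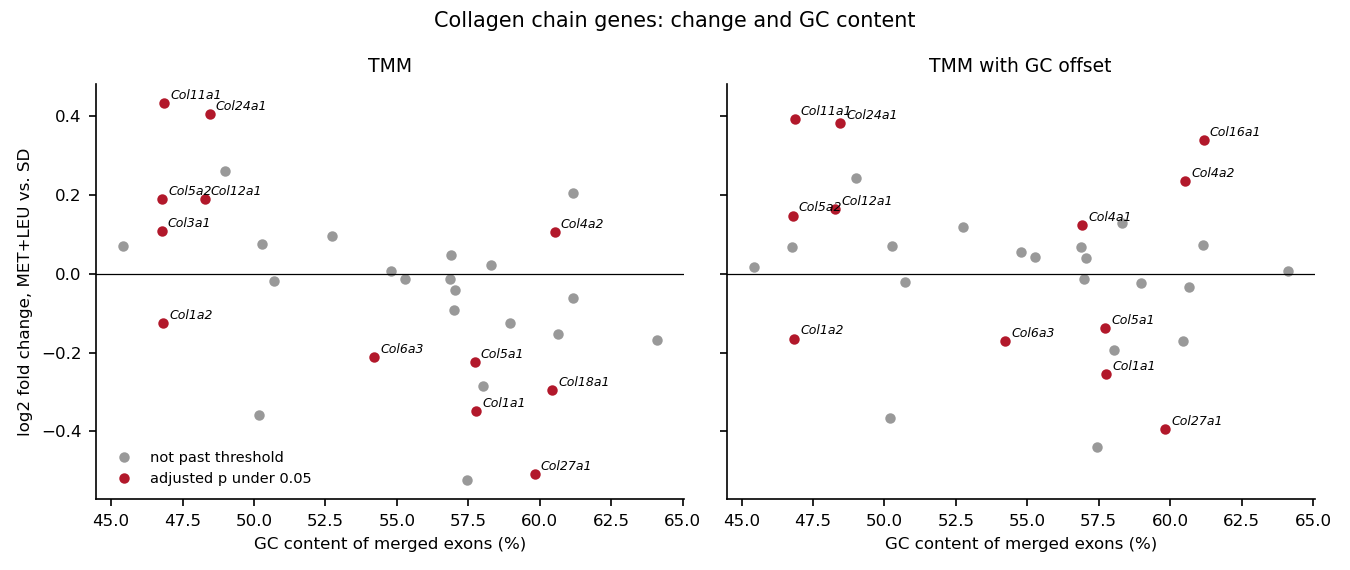
Log2 fold change of MET+LEU vs. SD (y) against GC content in percent (x) for the 32 tested collagen chain genes. GC content is over all annotated transcripts of a gene pooled, not over merged exons as the axis label says. Scaling was TMM (left) or TMM with a GC offset added (right), and coloured, named points have an adjusted p under 0.05. Of the 12 named points on the left, 10 were also past the threshold on the right, where Col4a1 and Col16a1 were added.

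Genes that modify, fold, export, process, crosslink or bind collagen were examined as a list of 53, of which 46 were tested. In SD vs. 2% HS, 22 (47.8%) were upregulated and 7 (15.2%) downregulated, with a median log2 fold change of 0.13, where 13.9% of all tested genes were called in each direction, so the downregulated share was near that of all genes. Of the 17 genes of hydroxylation and folding, 11 (64.7%) were upregulated and 3 (17.6%) downregulated against the same 13.9%. P4ha3, a catalytic subunit of prolyl 4-hydroxylase, rose from 9.91, 11 and 12.1 CPM to 22.6, 23.4 and 25.9 CPM (1.10 ± 0.07, adjusted p = 1.32e-17). P4ha1, another catalytic subunit, fell from 248, 270 and 308 CPM to 205, 234 and 246 CPM (-0.26 ± 0.04, adjusted p = 2.07e-06). P4ha2, the remaining catalytic subunit, fell from 68.2, 70.6 and 83.6 CPM to 46.5, 52.8 and 57.6 CPM (-0.49 ± 0.06, adjusted p = 1.50e-09). Of the 3 catalytic subunits, P4ha1 and P4ha2 thus fell, and P4ha3, the one with the lowest level per kilobase of transcript, rose. Serpinh1, the collagen chaperone HSP47, rose from a median of 441 to 566 CPM (0.41 ± 0.04, adjusted p = 1.52e-11). Fkbp14, a prolyl isomerase of the endoplasmic reticulum, rose by 0.57 on the log2 scale (adjusted p = 1.42e-12). Plod2, a lysyl hydroxylase of telopeptides, did not pass the test (0.07, adjusted p = 0.194).

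Among genes acting after secretion, Adamts2, which removes the amino propeptide of fibrillar procollagens, rose from a median of 114 to 162 CPM (0.51 ± 0.04, adjusted p = 3.50e-15). Lox, the crosslinking lysyl oxidase, rose from a median of 483 to 705 CPM (0.48 ± 0.04, adjusted p = 2.07e-14), and its relative Loxl2 fell (-0.50 ± 0.11, adjusted p = 0.000198). Mrc2, the endocytic receptor that takes up collagen for degradation, fell from 200, 206 and 210 CPM to 121, 132 and 151 CPM (-0.62 ± 0.05, adjusted p = 5.07e-13). Of the 8 receptors on the list, 7 were tested, 2 rose and 2 fell, where 13.9% of all tested genes were called in each direction. None of the 3 tested transcription factors passed the test, and both groups are too small to compare with that share.

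In MET+LEU vs. SD, 4 genes of the list (8.7%) were upregulated and 8 (17.4%) downregulated, where 10.6% and 7.8% of all tested genes were, with a median log2 fold change of -0.03. Adamts14, a propeptidase related to Adamts2, fell from a median of 37.5 to 30.8 CPM (-0.29 ± 0.05, adjusted p = 0.000159), and Adamts2 fell from 162 to 140 CPM (-0.25 ± 0.04, adjusted p = 9.84e-06). Mia3 (TANGO1), which loads procollagen for export, rose from a median of 166 to 189 CPM (0.21 ± 0.04, adjusted p = 0.000119). The receptor Ddr1 (-0.22, adjusted p = 0.00525) and the lysyl hydroxylase Plod3 (-0.19, adjusted p = 0.0145) were downregulated, but neither passed with the GC correction (-0.10 and -0.11). Serpinh1, P4ha1, Plod2 and Lox did not pass the test, with log2 fold changes of -0.08, -0.02, 0.10 and -0.04. In MET vs. SD none of the 46 genes passed the test in edgeR. An unadjusted p under 0.05 was found for 6 of them, 1 positive and 5 negative, against 749 and 848 of all 15907 tested genes. With both directions counted, the share of the list was near that of all genes. In LEU vs. SD only Adamts2 passed the test (-0.16, adjusted p = 0.0324).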

How the data were processed

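RNA from 30 libraries of C2C12 myotubes was sequenced by the authors with stranded total RNA libraries depleted of ribosomal RNA. The deposited values are raw counts per Ensembl gene (whole numbers, not normalized). The submitters' processing notes list cutadapt 1.16, STAR 2.7.6a, featureCounts 1.6.3, DESeq2 1.30.1 and GRCm38. The annotation release, strand setting and treatment of multimapping reads are not given in the sources used here. Symbols, lengths and GC content came from GENCODE M21, which held 55227 of the 55487 identifiers, and the other 260 had 0.00434% of counts.

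Genes were filtered with filterByExpr of edgeR 4.0.16 in R 4.3.3 (minimum count 10, minimum total 15), scaled by TMM and fitted over all 30 libraries with a mean per group (robust estimateDisp and glmQLFit). The quasi-likelihood test was used for each contrast, p-values were adjusted by Benjamini-Hochberg over 15907 genes, and the threshold was 0.05. The SE is the absolute log2 fold change divided by the square root of F. CPM are TMM-scaled, and levels per kilobase use the transcript with the longest coding sequence rather than merged exons as first planned. The reason for this change was the greater length of merged exons for Col1a2 (12426 against 5348 bases). Levels per kilobase of merged exons were not computed. Chain ratios used counts plus 0.5. The fit was tested on simulated data.

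The members and lists were chosen with earlier results of these data known. Statistics in full were given for 10 major chains, for the 5 largest changes past the threshold (mean log2 CPM of at least 0) in MET+LEU vs. SD and in SD vs. 2% HS, for chains called with MET or LEU, for the 5 largest changes of the biosynthesis list in those comparisons, and for Serpinh1, P4ha1, Plod2 and Lox. Other genes are named with fewer values. The marker lists not described in the report were tenocyte (98.6 to 128 CPM summed) and chondrocyte or osteoblast markers (45.3 to 60.9 CPM). Alternatives were DESeq2's size factors, upper-quartile scaling, DESeq2 1.42.0, limma-voom 3.58.1 with quality weights, genes with more than 5 counts, the compared groups only, a replicate block, a GC offset, a threshold of 0.01 and leaving out each library. The GC offset without MET+LEU replicate 6, and the GC offset taken off the chain ratios, were added after seeing the data. Chi-square tests of counts found no pair of libraries within sampling noise (at least 2.29 per degree of freedom). Floors cover counting error only, whereas SEs and standard deviations include the spread between these libraries. Protein sequences were not analysed here.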

Additional observations from a re-analysis of the deposited data

Results flagged for a closer look

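Dixon's test at the 95% level was applied to 22 measures (the named chains, the 4 chain ratios and the collagen share of counts) in 5 groups of 6, which gave 110 tests and 14 samples far from the others of their group. Chance gives about 1 in 20. Of the 14, 6 were MET+LEU replicate 6. It had 1.36% of its counts on collagen chain genes (others of its group 1.65% to 1.74%), 1025 CPM of Col5a1 (others 1279 to 1401) and 6.55 CPM of Col15a1 (others 5.13 to 5.56). Its log2 ratios were -0.83 for Col5a1 to Col5a2 (others -0.51 to -0.39), -0.20 for Col4a1 to Col4a2 (others -0.08 to -0.0090) and 0.53 for Col6a1 to Col6a2 (others 0.62 to 0.68). The same library held 5.85% ribosomal and 7.64% mitochondrial ribosomal RNA, and the part of this in these values was not tested.

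The other 8 were spread over 7 libraries. MET replicate 1 was low for Col3a1 (4590 CPM, others 4753 to 4806) and for Col4a1 (374 CPM, others 394 to 400). For Col4a2, SD replicate 2 was low (335 CPM, others 379 to 402) and MET+LEU replicate 2 was high (444 CPM, others 394 to 411). LEU replicate 4 was low for Col5a1 (1251 CPM, others 1349 to 1399), LEU replicate 1 was high for Col6a1 (893 CPM, others 861 to 870), and 2% HS replicate 5 was high for Col6a3 (327 CPM, others 296 to 306). In 2% HS replicate 3 the log2 ratio of Col6a1 to Col6a2 was 0.93 (others 0.82 to 0.84).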

How the results depend on the processing

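SD vs. 2% HS kept its direction and its counts within 1.5 times of 19 and 3 under every alternative run. With the GC offset, with the block and the GC offset, and with the GC offset without MET+LEU replicate 6, the median log2 fold change was 0.042, 0.042 and 0.030 in MET+LEU vs. SD, 0.47, 0.47 and 0.47 in MET+LEU vs. 2% HS, and 0.059, 0.056 and 0.069 in MET+LEU vs. LEU; in MET+LEU vs. MET it was 0.023 in the last of these. The uncalled log2 fold changes of MET+LEU vs. SD turned positive in the same 3 settings for Col6a1 (0.040, 0.039 and 0.022) and Col6a2 (0.067, 0.065 and 0.028), and in the first pair for Serpinh1 (0.0044 and 0.0048). Downregulated chains in MET+LEU vs. LEU were 0 in these 3 settings, with more than 5 counts and at 0.01, and 1 with limma-voom, the compared groups only and the replicate block. Upregulated chains there were 2 with DESeq2's size factors, upper-quartile scaling, more than 5 counts and 0.01, 1 with the compared groups only, and 3 with the GC offset without replicate 6. Downregulated chains in MET+LEU vs. MET were 4 in the 3 GC settings and with the compared groups only, and 3 at 0.01. In LEU vs. SD they were 4 with limma-voom and with the GC offset without replicate 6, 1 with more than 5 counts and 0 at 0.01. In MET+LEU vs. 2% HS they were 1 at 0.01 and 2 with the GC offset without replicate 6, and the median was 0.32 with more than 5 counts. The cause was not tested.

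Of the chain ratios, with the GC offset, with and without replicate 6, the differences were 0.0372 and 0.0372 for Col1a1 to Col1a2 in MET vs. SD, -0.0086 and -0.0083 for Col5a1 to Col5a2 in SD vs. 2% HS, and -0.0493 and -0.0493 for the latter in MET vs. SD. With all libraries they were -0.0886 for Col1a1 to Col1a2 and -0.111 for Col4a1 to Col4a2 in MET+LEU vs. SD.

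Fits that each left out a library gave 0 to 4 downregulated chains in LEU vs. SD, 2 to 5 in MET+LEU vs. 2% HS, 0 to 2 in MET+LEU vs. LEU and 4 to 7 in MET+LEU vs. MET, and 2 to 6 upregulated chains in MET+LEU vs. LEU. Medians were -0.0059 to 0.040 in MET vs. SD, 0.35 to 0.45 in MET+LEU vs. 2% HS, -0.060 to -0.010 in MET+LEU vs. MET and -0.060 to -0.0089 in MET+LEU vs. SD. Uncalled ratio differences changed sign for Col1a1 to Col1a2 in MET vs. SD (-0.029 to 0.034), Col4a1 to Col4a2 in MET vs. SD (-0.015 to 0.015) and in LEU vs. SD (-0.0023 to 0.028), and Col6a1 to Col6a2 in MET vs. SD (-0.00043 to 0.031).

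Same-numbered libraries did not deviate together (mean correlation 0.016 over 60 pairs, 2 of them over 0.1), so the numbers were not taken as pairs. With the replicate block, SD vs. 2% HS gave 20 upregulated and 3 downregulated chains and MET+LEU vs. SD gave 6 and 6. Depth limits the 12 chains not tested and the tested chains under 10 CPM.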
